A study of Mus musculus with 12 samples.

Results

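The muscle myosin heavy chains were taken from the table of counts by gene symbol, as *Myh1*, *Myh2*, *Myh3*, *Myh4*, *Myh7*, *Myh8*, *Myh11* and *Myh13*, which are 8 of the 21247 genes listed. All 8 had at least 10 counts summed over the libraries and were tested. The libraries came from skin biopsies around the eye of mice aged 6 weeks on a BALB/c background, 4 labelled ft/ft and 4 labelled ft/ftMyD88-/-. Both groups are homozygous for a point mutation that arose spontaneously and disables filaggrin, a barrier protein of the outer epidermis, and per the study's methods neither carries the matted (ma) mutation of the original flaky tail strain. The ft/ftMyD88-/- group is in addition deficient in MyD88, which relays signals of toll-like and IL-1 family receptors, in the whole animal. Both groups were compared to find what loss of MyD88 does in filaggrin-deficient skin.

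Myosin heavy chains are the motor proteins of muscle, which split ATP and pull on actin filaments. In skeletal muscle the chain that a fibre makes sets how fast it contracts. *Myh7* marks slow type I fibres, while *Myh2*, *Myh1* and *Myh4* mark the fast types IIA, IIX and IIB. *Myh3* and *Myh8* encode the embryonic and the perinatal chain, which forming and regenerating fibres make before the adult chains, and *Myh13* encodes a chain of the muscles that move the eyeball. *Myh11* encodes the chain of smooth muscle, which in skin lies in the walls of vessels and raises hairs. The eyelid holds the orbicularis oculi, a fast skeletal muscle, as well as a small smooth muscle.

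In the GRCm38 annotation, 6 of the 8 genes lie in a row on the plus strand of chromosome 11, in the order *Myh3* (67078273 to 67102291), *Myh2* (67171027 to 67197517), *Myh1* (67200102 to 67224577), *Myh4* (67237812 to 67260447), *Myh8* (67277124 to 67308634) and *Myh13* (67327103 to 67371587). *Myh7* lies on the minus strand of chromosome 14 (54970684 to 54994626) and *Myh11* on the minus strand of chromosome 16 (14194527 to 14292188). RefSeq promoter windows of GRCm38.p6 were matched by symbol for 7 of the 8 genes. The 250 bases before the start site of *Myh2*, *Myh1*, *Myh4* and *Myh8* are shown because these neighbours hold 2 stretches in common, printed in capitals, and because counts of 3 of them were lower together in the comparison that follows.
*Myh2* (chr11:67170777-67171026, plus strand): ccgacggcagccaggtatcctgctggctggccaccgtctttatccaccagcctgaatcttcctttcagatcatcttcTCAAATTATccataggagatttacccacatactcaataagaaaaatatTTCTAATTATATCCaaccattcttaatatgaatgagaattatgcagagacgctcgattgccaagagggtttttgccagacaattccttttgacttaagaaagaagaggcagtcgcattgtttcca
*Myh1* (chr11:67199852-67200101, plus strand): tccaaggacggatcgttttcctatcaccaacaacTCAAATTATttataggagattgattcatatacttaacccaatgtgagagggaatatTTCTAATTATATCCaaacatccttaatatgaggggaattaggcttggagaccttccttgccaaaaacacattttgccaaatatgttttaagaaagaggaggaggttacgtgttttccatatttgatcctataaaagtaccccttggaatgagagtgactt
*Myh4* (chr11:67237562-67237811, plus strand): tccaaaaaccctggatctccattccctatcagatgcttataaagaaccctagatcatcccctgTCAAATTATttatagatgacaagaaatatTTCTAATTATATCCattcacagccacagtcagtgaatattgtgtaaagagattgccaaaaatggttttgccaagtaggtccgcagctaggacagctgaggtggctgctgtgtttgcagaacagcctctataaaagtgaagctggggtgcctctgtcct
*Myh8* (chr11:67276874-67277123, plus strand): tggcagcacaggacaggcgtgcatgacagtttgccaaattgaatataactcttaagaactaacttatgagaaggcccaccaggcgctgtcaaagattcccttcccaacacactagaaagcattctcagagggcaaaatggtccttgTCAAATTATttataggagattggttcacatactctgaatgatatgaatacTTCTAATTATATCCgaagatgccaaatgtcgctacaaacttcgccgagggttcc
The longer stretch, TTCTAATTATATCC, was found on either strand in 4 of 32851 promoter windows (0.0122%), which are those of these 4 genes. It begins 125 bases before the start in *Myh2*, 160 in *Myh1*, 158 in *Myh4* and 54 in *Myh8*. The shorter stretch, TCAAATTAT, was found in 57 windows (0.174%). The binding motif of MEF2, a transcription factor of muscle, matched once each in the windows of *Myh1*, *Myh4* and *Myh8*, and 1.69% of all windows hold a match. In all 3 genes that match shares 4 bases with TCAAATTAT. The E-box CANNTG, bound by myogenic factors such as MyoD, matched in 66.2% of all windows, with 2 matches in *Myh4*, 1 in *Myh8* and 0 in *Myh1* and *Myh2*. Both stretches came from a search for those common to these 4 windows, so their presence in all 4 was fixed by that search. The window of *Myh3*, whose counts were also lower, holds neither stretch. These matches describe the letters only.

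The near-identical exons of these genes limit how well reads of 50 bases can be assigned. Of all 50-base stretches of the longest coding transcript, those found in no other gene's transcripts made up 67.9% in *Myh1*, 71.1% in *Myh2*, 81.1% in *Myh4* and 78.6% in *Myh8*, against 95.2% in *Myh3* and 99.6% in *Myh11*. *Myh1* and *Myh2* had 1186 such stretches in common, 19.7% of either transcript. Their values are therefore uncertain to that extent. *Myhas* and *9430073C21Rik* are annotated antisense to *Myh1* and *Myh2*, and the TruSeq kit that the study's methods name does not mark strand, so their reads cannot be told apart from those of the myosins.

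Libraries held between 15802957 and 29255129 counts. Values are edgeR's CPM, in which counts are brought to 1 common library size with TMM factors, and are given with the SD over n = 4 libraries. A count of 0 allows up to 3 counts, which is 0.102 to 0.183 CPM. In the libraries labelled ft/ftMyD88-/-, *Myd88* was no lower, at 32.2 to 48.8 CPM against 25.4 to 36.5 CPM in those labelled ft/ft (log2 fold change 0.42, SE 0.142, edgeR adjusted p = 0.0484), so its count does not check the labels. The design text of the series gives female mice, but the Y-linked *Ddx3y* stood at 65.0 ± 8.97 CPM in ft/ft and at 0.147 ± 0.225 CPM in ft/ftMyD88-/-, while *Xist*, the RNA of the inactive X chromosome, had 1 count in all in ft/ft and stood at 49.4 ± 13.3 CPM in ft/ftMyD88-/-. Genotype and sex therefore cannot be told apart in any comparison given here. Per the study's results, the skin around the eye was visibly inflamed in ft/ftMyD88-/- mice, with thicker epidermis, and showed no visible inflammation in ft/ft mice. The biopsies were whole tissue. Fewer muscle cells, less RNA per muscle cell and a larger share of other tissue in the biopsy therefore cannot be told apart either.

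Among the skeletal chains, 2 of the 3 adult fast ones and both developmental ones were lower in the libraries labelled ft/ftMyD88-/-, while the smooth muscle chain did not pass the test. *Myh4*, *Myh2*, *Myh3* and *Myh8* fell, by between 2.17-fold and 9.26-fold, and none of the 8 rose. Among all 20454 genes tested with edgeR's quasi-likelihood test, 23.3% passed an adjusted p of 0.05, 12.3% in the lower direction, and the median log2 fold change was 0.013. Among the 8 myosins 4 passed, all lower, and the median log2 fold change was -1.21. For 3 of the 8, *Myh4*, *Myh2* and *Myh3*, the values of the groups did not overlap, as was so for 26.7% of all genes.

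**Figure D1:**
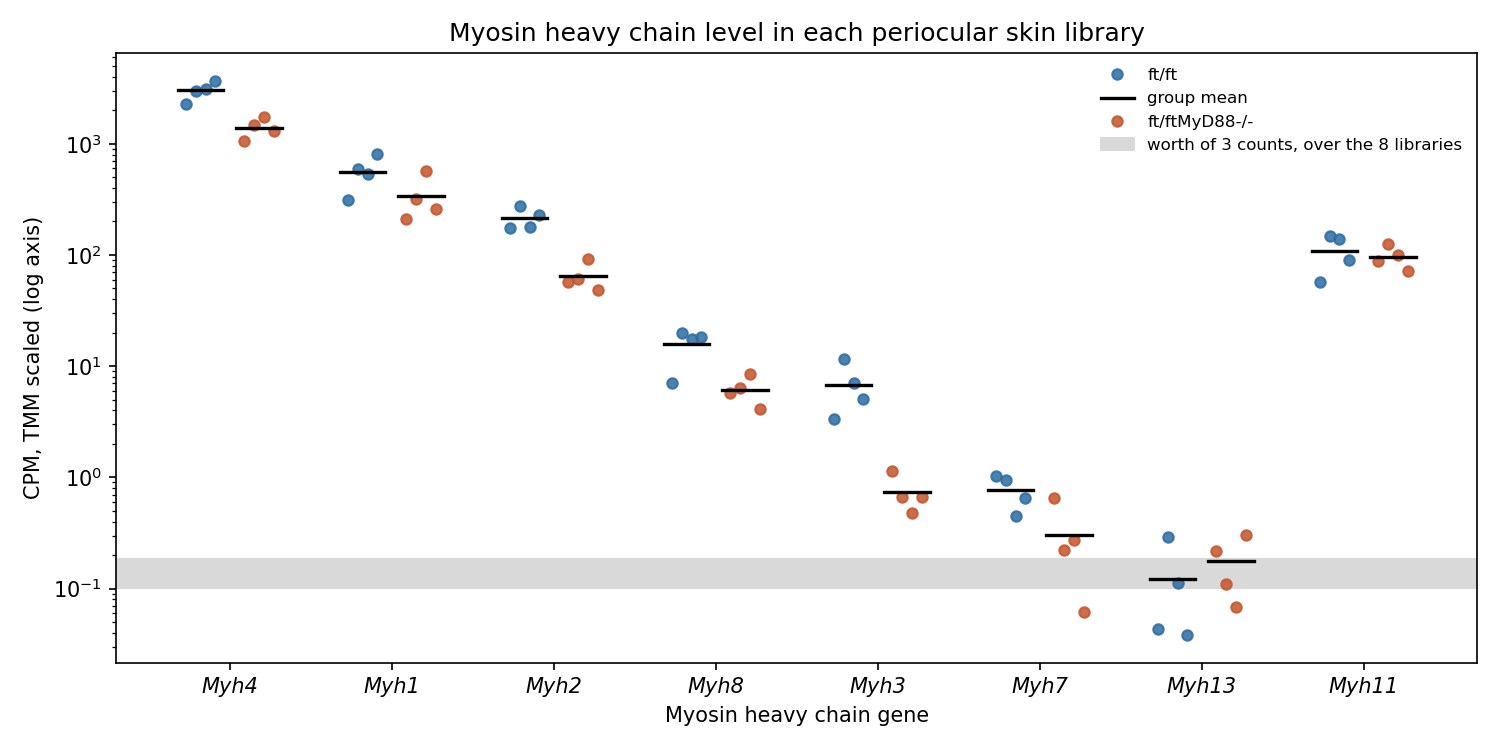
CPM, counts brought to 1 common library size, of the 8 myosin heavy chain genes (log axis) in each of the 4 ft/ft and 4 ft/ftMyD88-/- libraries; points are libraries, short lines the group means, and the grey band marks what 3 counts are worth over the 8 libraries. The groups are apart for *Myh4*, *Myh2* and *Myh3*, and they overlap for the other genes.

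The type IIB chain *Myh4* was the most counted of the 8. It stood at 2294, 2954, 3137 and 3689 CPM in ft/ft replicates 1 to 4, a mean of 3018 ± 575 CPM. In ft/ftMyD88-/- it stood at 1052, 1461, 1750 and 1305 CPM, a mean of 1392 ± 292 CPM. Every ft/ftMyD88-/- library lay below every ft/ft library. The log2 fold change was -1.12 (SE 0.172, edgeR adjusted p = 0.00102), or 2.17-fold lower. *Myh4* alone took 0.211% to 0.352% of all counts in ft/ft and 0.111% to 0.190% in ft/ftMyD88-/-.

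The type IIA chain *Myh2* fell further, by 1.72 on the log2 scale (SE 0.216, edgeR adjusted p = 0.000756), or 3.29-fold. Its values were 176, 274, 180 and 227 CPM in ft/ft and 57.5, 61.1, 92.7 and 48.9 CPM in ft/ftMyD88-/-. The lowest ft/ft library still lay above the highest ft/ftMyD88-/- library. Group means were 214 ± 46.0 and 65.1 ± 19.2 CPM.

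The type IIX chain *Myh1* did not pass the test. It stood at 313, 597, 539 and 802 CPM in ft/ft and at 208, 322, 574 and 258 CPM in ft/ftMyD88-/-. Replicate 3 of ft/ftMyD88-/- lay among the ft/ft libraries, and replicate 1 of ft/ft lay among the ft/ftMyD88-/- libraries. Means were 563 ± 201 and 341 ± 163 CPM, with a log2 fold change of -0.72 (SE 0.399, edgeR adjusted p = 0.241). Without ft/ftMyD88-/- replicate 3 the value was -1.09 and passed (edgeR adjusted p = 0.0453), so that library decided the call.

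The embryonic chain *Myh3* differed most among the 8. It stood at 3.34, 11.7, 7.03 and 5.10 CPM in ft/ft, from 78, 321, 126 and 133 counts. In ft/ftMyD88-/- it stood at 1.14, 0.661, 0.476 and 0.671 CPM, from 26, 18, 14 and 11 counts. No ft/ftMyD88-/- library reached the lowest ft/ft library. The log2 fold change was -3.21 (SE 0.418, edgeR adjusted p = 0.000681), or 9.26-fold lower, between means of 6.79 ± 3.59 and 0.737 ± 0.283 CPM.

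The perinatal chain *Myh8* stood at 7.07, 19.8, 17.5 and 18.4 CPM in ft/ft and at 5.74, 6.36, 8.44 and 4.09 CPM in ft/ftMyD88-/-. Here the groups overlapped, because ft/ft replicate 1 lay below ft/ftMyD88-/- replicate 3. The log2 fold change was -1.34 (SE 0.33, edgeR adjusted p = 0.0195), or 2.53-fold lower. The call was lost without ft/ftMyD88-/- replicate 1 (edgeR adjusted p = 0.0625) and without replicate 4 (edgeR adjusted p = 0.0514), at log2 fold changes of -1.30 and -1.19.

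The slow chain *Myh7* was near the floor of detection. Its counts were 24, 26, 8 and 17 in ft/ft and 15, 6, 8 and 1 in ft/ftMyD88-/-, or 0.768 ± 0.269 and 0.303 ± 0.253 CPM. The groups overlapped, and the log2 fold change of -1.31 (SE 0.49, edgeR adjusted p = 0.0723) did not pass. Without ft/ftMyD88-/- replicate 1 it was -1.93 and passed (edgeR adjusted p = 0.0151). The cardiac gene *Myh6*, with which *Myh7* has 22.2% of its 50-base stretches in common, is not among the genes counted under that symbol. Its counts could therefore not be set beside those of *Myh7*. In the annotation *Mhrt*, *Gm31251*, *Gm29015* and *Gm17428* overlap *Myh7* on the other strand, and they are not among the genes counted either.

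For *Myh13*, the chain of eyeball muscles, counts were 1, 8, 2 and 1 in ft/ft against 5, 3, 2 and 5 in ft/ftMyD88-/-. At these counts no difference was detectable (log2 fold change 0.37, SE 0.741, edgeR adjusted p = 0.756).

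The smooth muscle chain *Myh11* stood at 57.3, 149, 139 and 89.7 CPM in ft/ft and at 87.7, 126, 100 and 71.4 CPM in ft/ftMyD88-/-. All 4 ft/ftMyD88-/- libraries lay within the range of the ft/ft libraries. Means were 109 ± 43.1 and 96.5 ± 23.2 CPM, and the log2 fold change of -0.17 (SE 0.323, edgeR adjusted p = 0.747) was smaller than its error. With library size alone as the scaling it was 0.0053, and without ft/ft replicate 2 it was 0.019.

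Levels of different genes were compared per length, as CPM per 1000 of the 50-base stretches found in that gene alone. In ft/ft the order was *Myh4* (624), *Myh1* (137), *Myh2* (49.9), *Myh11* (16.8), *Myh8* (3.27), *Myh3* (1.19), *Myh7* (0.173) and *Myh13* (0.022). The libraries of neighbours in that order overlapped for *Myh8* and *Myh3* and for no other pair of neighbours. Within each ft/ft library *Myh8* still stood above *Myh3*. In ft/ftMyD88-/- the order of all 8 was the same. It began with *Myh4* (288), *Myh1* (83.2), *Myh2* (15.2), *Myh11* (14.9) and *Myh8* (1.28). *Myh3* (0.129), *Myh7* (0.0683) and *Myh13* (0.0319) came last. In that group the libraries of *Myh2* and *Myh11*, of *Myh3* and *Myh7* and of *Myh7* and *Myh13* overlapped. Within each ft/ftMyD88-/- library *Myh3* still stood above *Myh7*. On the same scale *Myh4* made up 76.8 ± 2.80% of the 7 skeletal chains in ft/ft and 75.0 ± 4.18% in ft/ftMyD88-/-. *Myh1* made up 16.4 ± 2.73% and 20.7 ± 4.09%, with overlapping libraries. *Myh2* made up 6.22 ± 1.30% and 3.93 ± 0.629%, and its libraries did not overlap. *Myh7*, the slow chain, made up 0.0229 ± 0.0123% and 0.0201 ± 0.0218%. Per full transcript length, *Myh4* made up 79.5 ± 2.55% in ft/ft and 78.0 ± 3.83% in ft/ftMyD88-/-. On that scale *Myh1* made up 14.3 ± 2.43% and 18.0 ± 3.71%, and *Myh2* 5.65 ± 1.19% and 3.59 ± 0.578%.

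Ratios within a library do not depend on its scaling, and 3 were tested against *Myh4*. *Myh2* had 7.68, 9.27, 5.73 and 6.14 counts per 100 counts of *Myh4* in ft/ft and 5.47, 4.18, 5.30 and 3.75 in ft/ftMyD88-/-. The groups did not overlap, and the log2 ratio was lower by 0.62 in ft/ftMyD88-/- (-3.82 ± 0.316 and -4.44 ± 0.265). The two-sided exact permutation test gave p = 0.0286, the smallest that 4 against 4 libraries allow, and 0.0857 after Benjamini-Hochberg adjustment over the 3 ratios, which does not pass. *Myh1* had 13.7, 20.2, 17.2 and 21.7 counts per 100 counts of *Myh4* in ft/ft and 19.8, 22, 32.8 and 19.8 in ft/ftMyD88-/-, a log2 difference of 0.36 (exact permutation p = 0.229, adjusted 0.343). The log2 ratio of *Myh7* to *Myh4* differed by -0.44, less than its spread within either group (exact permutation p = 0.571).

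Another 3 ratios to *Myh4* were formed after the values had been seen and were not tested. *Myh3* had 0.146, 0.395, 0.224 and 0.138 counts per 100 counts of *Myh4* in ft/ft and 0.108, 0.0453, 0.0272 and 0.0514 in ft/ftMyD88-/-, without overlap. The embryonic chain was thus lower relative to the adult fast chain as well. *Myh11* had 2.50, 5.05, 4.44 and 2.43 counts per 100 counts of *Myh4* in ft/ft and 8.34, 8.65, 5.74 and 5.47 in ft/ftMyD88-/-, so that the smooth muscle chain was higher relative to the fast skeletal chain in every ft/ftMyD88-/- library. The log2 ratio of *Myh8* to *Myh4* overlapped between the groups, with a difference of -0.17.

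**Figure D2:**
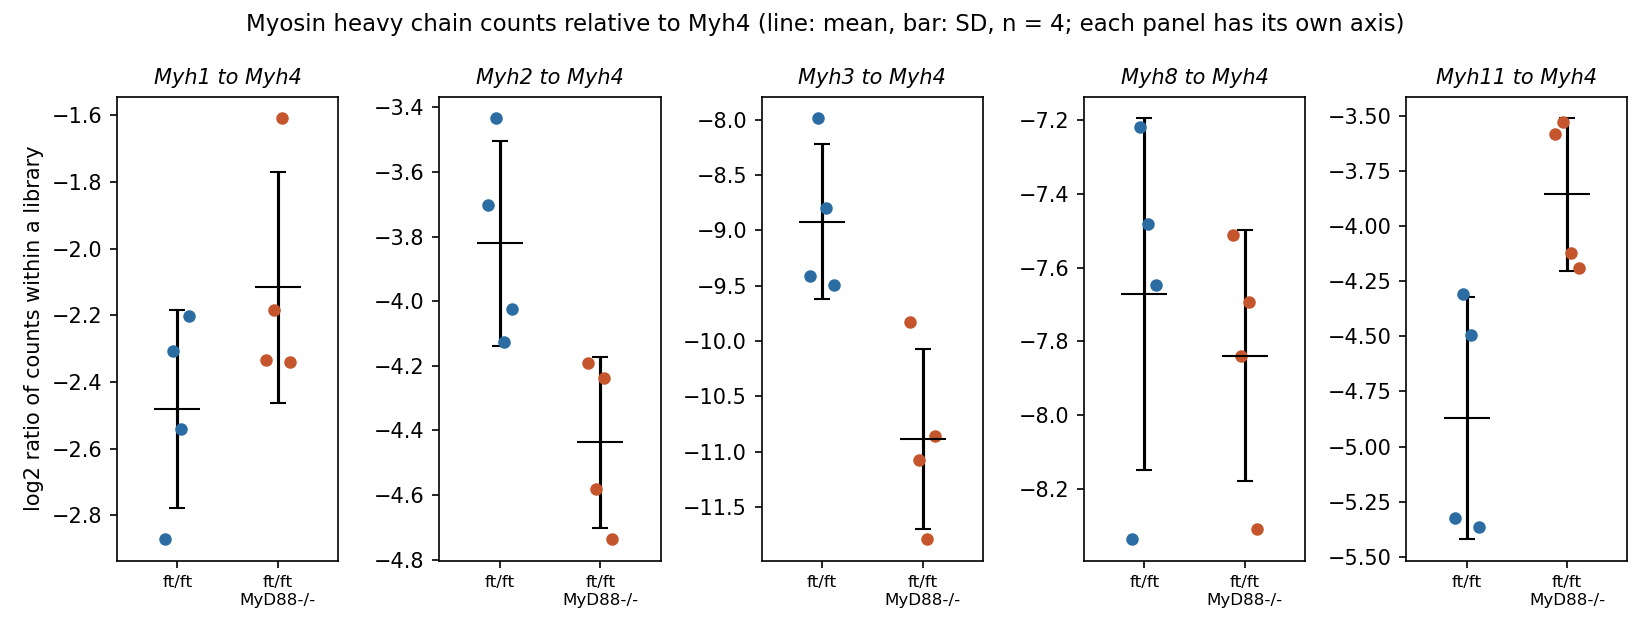
Log2 ratio of the counts of each named myosin to those of *Myh4* in each of the 4 ft/ft and 4 ft/ftMyD88-/- libraries; points are libraries, short lines the group means and bars the SD (n = 4), and each of the 5 panels has its own axis. The groups are apart for *Myh2* and *Myh3*, lower in ft/ftMyD88-/-, and for *Myh11*, higher there.

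The partners of the fast chains in the sarcomere and in calcium handling were lower as well. Of 14 genes of fast fibres, 12 passed lower and 0 higher, beside 12.3% lower and 10.9% higher among all genes. Their median log2 fold change was -0.998. *Atp2a1*, the calcium pump of fast fibres, stood at 2046 ± 304 CPM in ft/ft and 858 ± 227 CPM in ft/ftMyD88-/- (log2 fold change -1.25, SE 0.177, edgeR adjusted p = 0.000676). *Casq1*, which binds calcium in the fast fibre store, fell by 1.44 on the log2 scale, *Ckm*, muscle creatine kinase, by 1.1, fast troponin T (*Tnnt3*) by 1.03 and skeletal actin (*Acta1*) by 0.91. Summed over the list, ft/ft libraries held 8101 to 11551 CPM and ft/ftMyD88-/- libraries 3202 to 6241 CPM. Of 14 genes listed as shared by sarcomeres or needed to build them, 10 passed lower and 0 higher, with a median of -0.91. The same shares of all genes apply. That list also held *Ryr1* (-1.17), the calcium release channel, and *Mb* (-0.83), myoglobin, which are not sarcomere parts, and both passed lower. *Smyd1* (-1.26, SE 0.148, edgeR adjusted p = 0.000227) and *Unc45b* (-1.24, SE 0.169, edgeR adjusted p = 0.000493), which help fold and assemble myosin, and *Myom2* of the M band (-1.25) were the clearest of the 14.

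Genes linked with slow fibres were mixed. Of 12, 5 passed lower and 2 higher, with a median of -0.53, beside 12.3% lower and 10.9% higher among all genes. Slow troponin T (*Tnnt1*) stood at 40.0 ± 4.71 CPM in ft/ft and 9.78 ± 1.28 CPM in ft/ftMyD88-/- (log2 fold change -2.03, SE 0.125, edgeR adjusted p = 1.45e-06). *Tnnt1* had 2.62 to 3.82 counts per 100 counts of the fast *Tnnt3* in ft/ft and 1.30 to 2.08 in ft/ftMyD88-/-. That ratio was chosen after the values were seen and was not tested. Troponin I went the other way, as the slow *Tnni1* lay at 0.67 without passing (edgeR adjusted p = 0.154) and the fast *Tnni2* fell by 0.96. *Myl3* (-0.19), *Csrp3* (-0.32) and *Tnnc1* (-0.75) did not pass either. *Myoz2*, a Z-disc protein of slow fibres, fell by 1.08 (SE 0.113, edgeR adjusted p = 9.85e-05). *Tpm3*, a tropomyosin that many cells outside muscle also make, rose by 1.00 (SE 0.0961, edgeR adjusted p = 6.16e-05), and *Atp2a2*, the calcium pump of slow fibres and of many other cells, did not pass at -0.21. *Myl2*, the light chain that works with the slow chain *Myh7*, fell by 2.22, and the calcium store protein *Casq2* rose by 0.79 (edgeR adjusted p = 0.00211); both were named after their values were seen.

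Genes of muscle progenitors and forming fibres are of interest beside *Myh3* and *Myh8*. Of 13 tested, 6 passed lower and 0 higher, with a median of -0.73, beside 12.3% lower and 10.9% higher among all genes. Without ft/ft replicate 3 the count was 3, without ft/ftMyD88-/- replicate 3 it was 5 lower and 1 higher, and with library size only 3 lower and 1 higher. *Actc1*, an actin of the heart and of forming skeletal fibres, stood at 13.1 ± 2.38 CPM in ft/ft and 3.21 ± 0.332 CPM in ft/ftMyD88-/- (log2 fold change -2.02, SE 0.159, edgeR adjusted p = 1.47e-05). *Myod1*, a transcription factor that commits cells to muscle, fell by 1.08, *Cdh15*, a cadherin of muscle progenitors, by 0.78 and the related factor *Myf6* by 0.77. The other 7 did not pass. Above 0 lay *Tnnt2* (0.51), *Chrna1* (0.28) and *Ncam1* (0.084), an adhesion molecule that nerves also make. Below 0 lay *Myl4* (-0.19), *Myf5* (-0.35), *Tmem8c* (-0.73) and *Chrnd* (-0.93).

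Genes of smooth muscle passed about as often as all genes did (23.3%). Of 12 tested, 2 passed lower and 1 higher, with a median of 0.21, and with library size only 0 passed lower and 2 higher. Summed over the list, ft/ft libraries held 383 to 600 CPM and ft/ftMyD88-/- libraries 471 to 549 CPM. Smooth muscle actin (*Acta2*), which activated fibroblasts also make, stood at 119 ± 33.7 and 171 ± 15.1 CPM (log2 fold change 0.52, SE 0.166, edgeR adjusted p = 0.0441), but passed in only 2 of the 8 fits that left out a library. *Synpo2* (-0.72) and *Ppp1r12b* (-0.68), which skeletal muscle also expresses, passed lower, and the light chain *Myl9* (0.18) did not pass. *Tnnc2* (1 to 3 counts) and *Tagln* (0 to 11 counts), defining genes of fast fibres and of smooth muscle, were nearly uncounted in every library. Both overlap a gene on the other strand in the annotation, *Ube2c* and *Pcsk7*, and the cause was not tested.

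**Figure D3:**
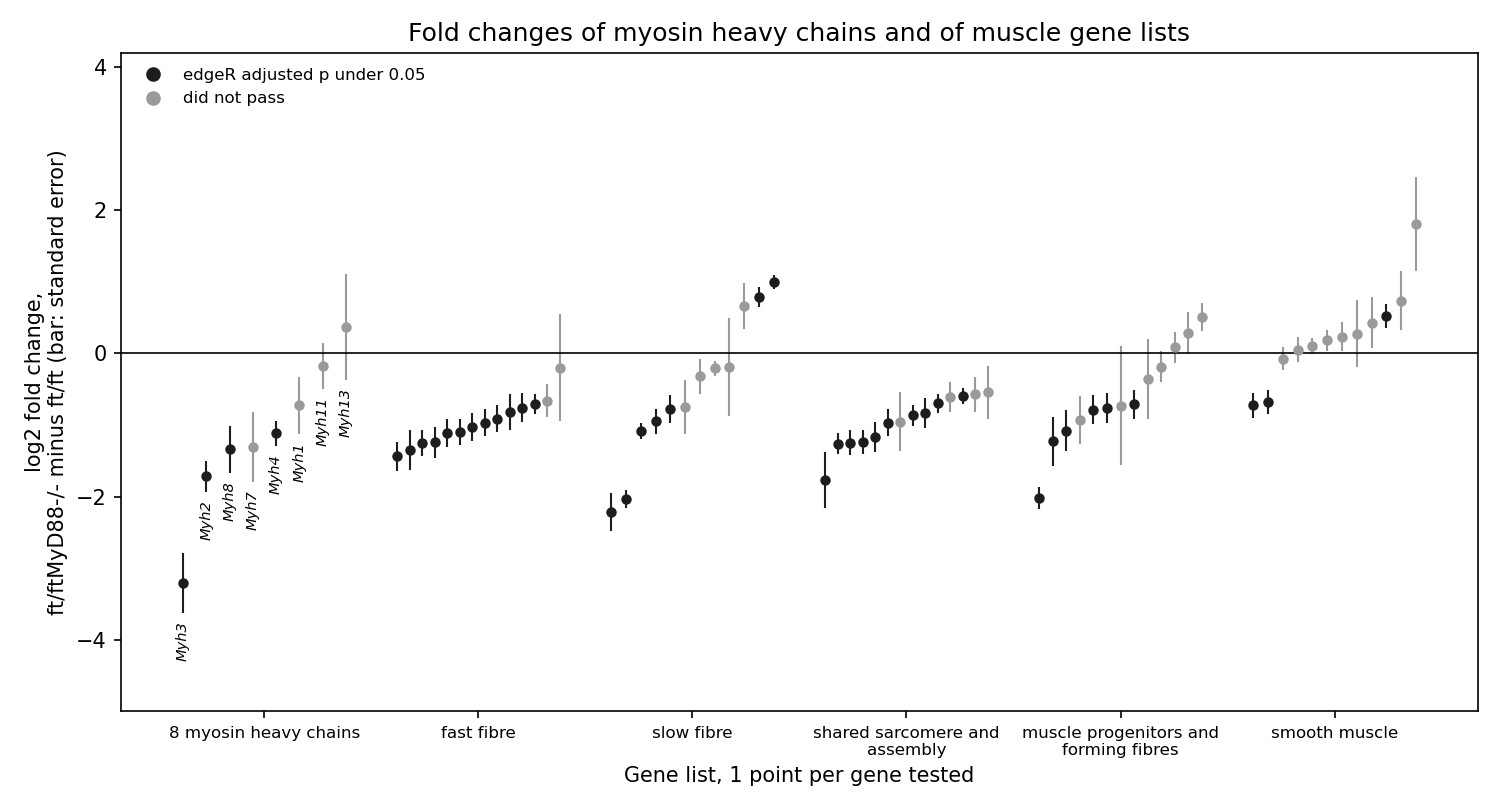
Log2 fold change, ft/ftMyD88-/- minus ft/ft, of the 8 myosin heavy chain genes and of each gene tested in 5 muscle gene lists, 1 point per gene with its standard error as a bar; black points passed an edgeR adjusted p of 0.05 and grey points did not. The embryonic chain *Myh3* lies lowest of all at -3.21, and nearly all fast fibre genes lie below 0 in black. Most smooth muscle genes are grey, and the grey ones range from -0.071 to 1.81.

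Markers of other cells in the biopsies were read beside the 12.3% lower and 10.9% higher among all genes. Fibroblast markers held 14019 to 29056 CPM in sum in ft/ft and 6962 to 10330 CPM in ft/ftMyD88-/-. The 3 of 6 that passed lower were the collagen genes *Col1a1* (-1.60), *Col1a2* (-1.49) and *Col3a1* (-1.1), while *Dcn* (-0.40), *Lum* (0.087) and *Pdgfra* (0.31) did not pass. Leukocyte markers held 312 to 362 CPM in ft/ft and 476 to 727 CPM in ft/ftMyD88-/-. Of these 5, *Lyz2* (0.98), *Ptprc* (0.70) and *Cd3e* (0.78) passed higher, and *Itgam* (-0.31) and *Cd68* (-0.11) did not pass. Epidermal markers held 23171 to 30730 and 18231 to 22580 CPM. The loricrin gene *Lor* (-1.51), *Krt5* (-0.67) and *Krt10* (-0.58) passed lower, and *Krt1* (-0.098), *Krt14* (0.049) and *Ivl* (0.10) did not. Among 7 markers of pericytes and endothelium, *Notch3* (-0.37) and *Kdr* (-0.55) passed lower. *Pdgfrb* (-0.45), *Cdh5* (-0.32), *Pecam1* (-0.23), *Cspg4* (-0.083) and *Rgs5* (0.18) did not pass. Only 1 of the 7 passed lower when any 1 library among ft/ft replicates 2, 3 and 4 or ft/ftMyD88-/- replicates 2, 3 and 4 was left out. With library size only, 0 passed lower and 1 higher. Among 4 markers of lacrimal gland and conjunctiva, *Aqp5* (-0.71) and *Krt13* (-0.70) passed lower, while *Krt4* (-0.74) and *Muc5ac* (0.66) did not pass. Only 1 of the 4 passed lower when any 1 library among ft/ft replicates 1, 2 and 3 or ft/ftMyD88-/- replicates 1, 3 and 4 was left out. Whether these differences have a part in those of the myosins was not tested. Of 4 genes of heart muscle, *Tnni3*, *Ryr2* and *Myl7* stood at 1.36 CPM or less in every library, and *Nppb*, a natriuretic peptide, was higher at 4.44 ± 1.72 against 0.573 ± 0.245 CPM (log2 fold change 2.89, SE 0.337, edgeR adjusted p = 0.000192).

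RNA length was examined through *Ttn*, the longest muscle transcript, and *Mylpf*, a short light chain of fast myosin, chosen after the values had been seen. *Ttn* had 30.9, 102, 44.8 and 65.8 counts per 100 counts of *Mylpf* in ft/ft and 61.4, 57.0, 63.8 and 27.1 in ft/ftMyD88-/-. The groups overlapped, and the ft/ft libraries alone held both a low value, in replicate 1, and the highest, in replicate 2. Its part in the values of the myosins, whose transcripts are long, was not tested.

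The genes most like each chain were those whose log2 ratio to it had the smallest SD over the 8 libraries. For *Myh4*, whose own log2 level had an SD of 0.659, these were *Scn4a*, the sodium channel of skeletal muscle (0.0978), *Mypn*, a Z-disc protein (0.109), *Sgca*, a sarcoglycan of the muscle membrane (0.113), *Ryr1*, the calcium release channel (0.113), and *Pfkm*, the muscle phosphofructokinase (0.126). All 5 are genes of skeletal muscle, and none was chosen by function. For *Myh11*, with an SD of 0.479, they included *Hspg2*, *Mrc2*, *Fbn1* and *Alg8*, with SDs of 0.188 to 0.220, of which *Hspg2* encodes a basement membrane proteoglycan and *Fbn1* a fibre protein of the matrix. For *Myh7*, with few counts and an SD of 0.999, they were *Tmem30c*, *Ugt1a1*, *Krt90*, *Snap91* and *Rab11fip4*, with SDs of 0.476 to 0.565. The 8 libraries differ in depth and group, and the measure describes likeness only.

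**Figure D4:**
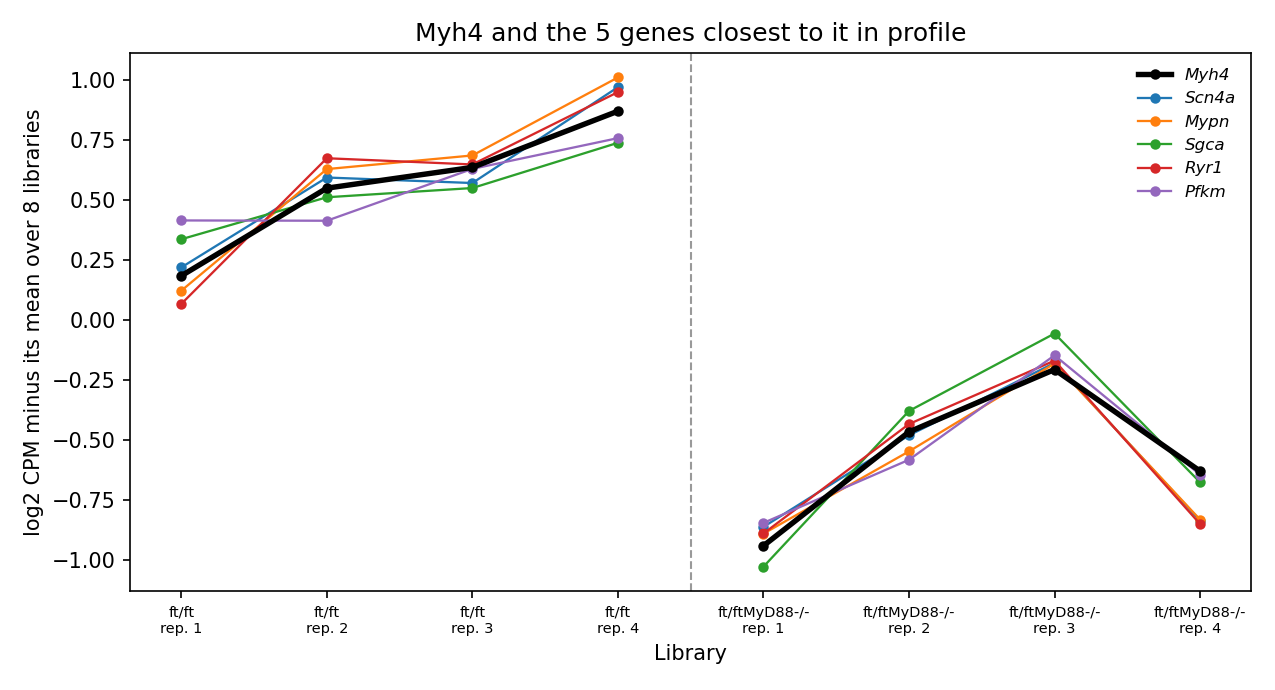
Log2 CPM of *Myh4* and of the 5 genes most like it in each of the 8 libraries, relative to each gene's mean; lines only join points of a gene within a group, as libraries have no order. The 5 genes were chosen for lying close to *Myh4* in these same libraries, so their closeness follows from the choice. All 6 lie lower in the 4 ft/ftMyD88-/- libraries, as *Myh4* does.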

How the data were processed

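Total RNA of skin biopsies was measured by RNA-seq. The authors deposited raw counts per gene without normalization. Per the study's methods, polyA-selected TruSeq libraries were read as single ends of 50 bases, aligned to GRCm38.p6 (HISAT, tophat2) and counted by HTSeq at default settings. The labels instead name a fixed-tissue protocol, Cell Ranger and GRCm38. Versions and annotation release are not given in the sources used here. The deposited table held 8 libraries, and 4 of the 12 labelled samples, from wild-type mice, were not analysed here. Of the gene names, 16066 matched a RefSeq symbol.

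Groups were taken from sample titles. Genes with at least 10 counts summed over libraries entered edgeR 4.0.16 under R 4.3.3 (TMM, glmQLFit with robust = TRUE, two-sided glmQLFTest, no covariate), with p-values adjusted over all genes by Benjamini-Hochberg and a threshold of 0.05. SEs are the log2 fold change divided by the square root of F. The study describes 4 mice per group, while the labels do not tie libraries to mice. Floors cover counting error only, whereas SDs and SEs also hold the variation between libraries. Ratios were log2 of counts plus 0.5, tested by exact permutation. The members and gene lists were chosen with earlier results of these data known. Named genes were the members, up to 3 genes with the smallest adjusted p and 3 with the highest mean count per list, *Myd88*, *Flg*, *Xist* and *Ddx3y*, and the 5 genes of at least 50 mean counts most like *Myh4*, *Myh7* and *Myh11*, of which 1 is not reported here. *Tnnc2*, *Tagln*, *Ttn*, *Mylpf*, *Myl2*, *Casq2*, *Mb*, *Tnnt2*, *Chrna1*, *Myl4*, *Myf5*, *Tmem8c* and *Chrnd* were named after their values were seen. The same holds for *Tnni1*, *Tnni2*, *Myl3*, *Tnnc1*, *Csrp3*, *Cdh5* and *Cspg4*. Motifs were searched in RefSeq windows of GRCm38.p6.

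Replicate libraries differed by at least 16.3 in chi-square per degree of freedom, and no pair was treated as duplicate. On simulated data, with 20165 genes tested, the fit called 198 of 200 genes changed 4-fold and 12 unchanged genes. The changed genes were drawn from those of at least 50 mean counts, so smaller changes and genes of fewer counts were not covered. Alternatives were DESeq2 1.42.0, limma 3.58.1 voom, RLE scaling, library size only, filterByExpr, no filter, the replicate number as a block, 1 count added in ratios and each library left out in turn. Figures were drawn with matplotlib 3.10.9.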

Additional observations from a re-analysis of the deposited data

Results flagged for a closer look

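Within each group of 4 libraries the highest or lowest library was compared with the others by Dixon's ratio, in 162 groups of values, and 5 stood apart. Chance would mark about 1 in 20 groups. *Myh14*, a nonmuscle myosin heavy chain of epithelia, stood at 324 CPM in ft/ft replicate 2 against 255 to 266 CPM in the others, and at 223 CPM in ft/ftMyD88-/- replicate 1 against 132 to 138 CPM. *Myh15* stood at 0.789 CPM in ft/ftMyD88-/- replicate 1 against 0.068 to 0.147 CPM. *Pecam1*, an endothelial adhesion molecule, stood at 97.7 CPM in ft/ft replicate 4 against 86.6 to 88.3 CPM, and *Cd68*, a macrophage marker, at 45.2 CPM in ft/ftMyD88-/- replicate 2 against 34.4 to 35.6 CPM. None of the 8 muscle myosins had a library that stood apart by this measure.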

How the results depend on the processing

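*Myh2*, *Myh3* and *Myh4* kept their direction and their call in all 15 alternatives. With each library left out in turn, log2 fold changes ranged from -1.92 to -1.58 for *Myh2*, from -3.50 to -2.81 for *Myh3* and from -1.23 to -1.0 for *Myh4*, and between 3 and 5 of the 8 myosins passed. Over the 82 genes named, 1139 of 1226 alternative values kept direction and call, 44 lost and 20 gained the call, and 23 turned direction; the cause was not tested. Library size alone moved the median of all genes from 0.013 to 0.19 and the share of lower among called genes from 53% to 22.2%, where 4 myosins still passed. The count for progenitor genes ranged from 3 to 6 with a library left out. The log2 ratio of *Myh2* to *Myh4* ranged from -0.72 to -0.49 (exact p up to 0.0571), and that of *Myh7* to *Myh4* from -1.03 to 0.035, the last without ft/ftMyD88-/- replicate 4.

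Same-numbered libraries did not deviate together (correlations of -0.146, 0.0251, 0.0146 and -0.0169), so the numbers were not taken to pair them. With the replicate number as a block, 4039 genes passed in place of 4764, and 4 of the 8 myosins. Of the lists, 12 fast fibre, 7 slow fibre, 12 shared sarcomere, 3 smooth muscle and 6 progenitor genes passed. The ratio of *Myh2* to *Myh4* differed by -0.62 (exact sign-flip p = 0.125, the smallest that 4 pairs allow), that of *Myh1* by 0.36 and that of *Myh7* by -0.44.

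Values that turned direction all belonged to genes that did not pass. With library size alone these were *Myh11* (0.0053), *Krt1* (0.076), *Cd68* (0.063), *Mrc2* (0.037) and *Alg8* (0.12), and with voom *Myl7* (-0.013) and *Alg8* (0.0065). With each library left out in turn, *Myh11* ranged from -0.38 to 0.019, *Ncam1* from -0.063 to 0.21, *Myh9* from -0.0019 to 0.32, *Hspg2* from -0.19 to 0.14, *Krt1* from -0.20 to 0.061, *Alg8* from -0.20 to 0.073, *Mrc2* from -0.31 to 0.013, *Krt14* from -0.026 to 0.13, *Myh15* from -0.27 to 1.5 and *Myl7* from -0.14 to 0.51. Depth limits *Myh7* and *Myh13*, with at most 26 and 8 counts in a library.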

Other observations

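Myosin heavy chains outside the muscle set were measured beside it. *Myh9* and *Myh10*, the nonmuscle chains that most cells use to move and divide, stood at 465 ± 129 and 31.1 ± 6.32 CPM in ft/ft and at 511 ± 62.8 and 34.7 ± 2.92 CPM in ft/ftMyD88-/-. Neither passed (log2 fold changes 0.14 and 0.16, edgeR adjusted p = 0.627 and 0.445). *Myh14*, another nonmuscle chain, fell by 0.82 (SE 0.167, edgeR adjusted p = 0.00578), from 276 ± 32.1 to 157 ± 44.1 CPM, without overlap between the groups. *Myh7b* (-0.71, edgeR adjusted p = 0.157) and *Myh15* (1.01, edgeR adjusted p = 0.429) had few counts and did not pass.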
